A study of Mus musculus with 50 samples.

Results

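Of 50 mammary tumours on expression arrays, 24 were compared here: the 12 with the highest level of Erbb4, called the Erbb4-high tumours, and the 12 with the lowest level, called the Erbb4-low tumours. The tumours titled mid60, mid79 and mid100 were set aside first, the remaining 47 were ranked by Erbb4, and the 23 tumours between both groups served as tumours that the comparison did not use. The groups were made from the measured level of Erbb4, so they are not groups of the study, and Erbb4 itself was left out of every test. The labels give all tumours the same description.

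All tumours arose spontaneously in female mice carrying the MMTV-Erbb2 transgene, in which a viral promoter active mainly in mammary epithelium (MMTV) expresses the receptor ERBB2. They were backcross animals, F1 hybrids of C57BL/6J and FVB/NJ crossed again with transgenic FVB/NJ, so every mouse of both groups carried the transgene and the segments inherited from each strain varied between mice. A biopsy was taken before drug treatment, and the labels name doxorubicin in one place and docetaxel in another. The labels give no age, batch or response, and they do not say whether any tumours came from the same mouse. The p-values below treat the tumours as independent and set each difference against the spread between tumours. If some tumours came from the same mouse, these p-values could be too small.

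ERBB4 is the fourth receptor of the epidermal growth factor receptor family. It binds neuregulins and several ligands of the epidermal growth factor (EGF) type, pairs with the other receptors of the family, and can be cut at the membrane so that its inner part enters the nucleus together with STAT5. In the mouse mammary gland this receptor is needed for the full differentiation of milk-secreting cells in late pregnancy and lactation. ERBB2 has no known ligand and signals as a partner of the other receptors.

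The values are log2 expression after RMA, and 1 unit is a 2-fold difference in signal. Among all 50 arrays the mean correlation with the other arrays was 0.916 for mid79, 0.931 for mid60 and 0.954 for mid100, the 3 tumours set aside. It lay between 0.974 and 0.98 in the Erbb4-high tumours and between 0.967 and 0.98 in the Erbb4-low tumours, the lowest being mid9. The luminal epithelial markers Krt8, Krt18, Epcam and Cdh1 were bright in both groups, and none differed past the test. Of the other luminal epithelial markers, Krt19, Cldn3 and Cldn4 did not differ past the test either. Cldn7 was lower in Erbb4-high tumours, as given below. Epcam had a lowest, median and highest value of 11.35, 11.48 and 11.72 log2 in the Erbb4-high tumours, against 11.29, 11.53 and 11.71 log2 in the Erbb4-low tumours. Each value comes from a bulk biopsy, in which fewer cells of a type and less RNA per cell cannot be told apart.

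Erbb4 was measured by 1 probe set. In the Erbb4-high tumours its lowest, median and highest values were 8.27, 8.49 and 9.01 log2, with mid99 the highest and mid87 (8.72) and mid114 (8.71) next. In the Erbb4-low tumours they were 4.75, 5.91 and 7.07 log2. The Erbb4-low tumours were not alike: 5 of them (mid9, mid11, mid101, mid145 and mid111) lay between 4.75 and 5.01 log2, and the other 7 lay between 5.78 and 7.07 log2. The means were 8.53 ± 0.211 and 5.86 ± 0.963 log2 (SD, n = 12 each), a difference of 2.68 log2 or 6.39-fold, which the choice of the tumours fixed. The tumour just outside the Erbb4-high group, mid37, had 8.23 log2 against 8.27 log2 for mid7 inside it. The tumour just outside the Erbb4-low group, mid91, had 7.14 log2 against 7.07 log2 for mid33 inside it.

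**Figure D1:**
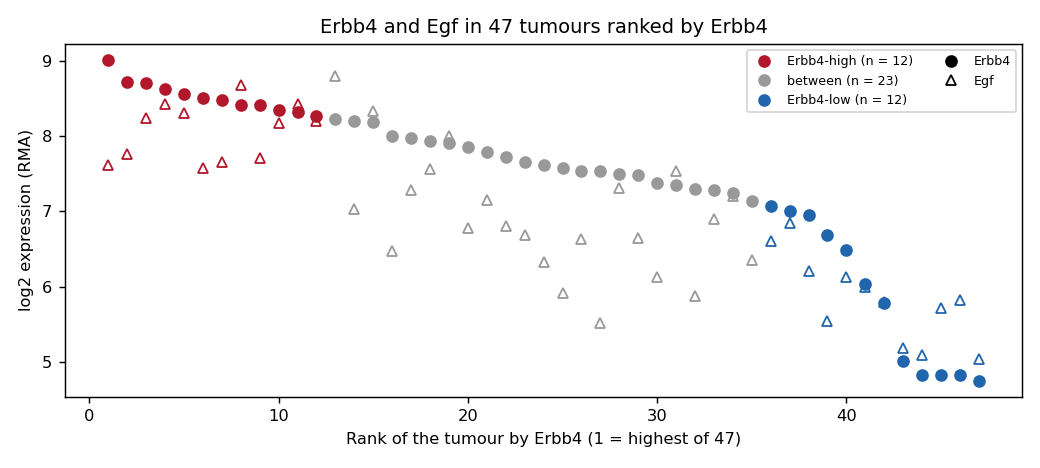
Log2 expression of Erbb4 (filled circles) and Egf (open triangles) in 47 tumours, placed on the horizontal axis by the rank of Erbb4; red marks the 12 Erbb4-high tumours, grey the 23 tumours between and blue the 12 Erbb4-low tumours. Erbb4 bends downwards at the right end, where 5 tumours lie at or below 5.01 log2, and every red triangle lies above every blue one.

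Across 18044 tested genes other than Erbb4, limma called 730 genes higher in Erbb4-high tumours (4.05% of those tested) and 478 genes lower (2.65%), 6.69% together, at a Benjamini-Hochberg adjusted p under 0.05. At least a 2-fold difference was seen for 46 of the higher and 81 of the lower genes. The median difference over all tested genes was -0.01 log2. Counts of called genes in single lists, given below, stand beside the shares of 4.05% and 2.65%, and they rest on few genes. In the fits that left out 1 tumour at a time, 463 of the higher and 319 of the lower genes were called every time. Only 2 genes were higher without any overlap of the groups, Egf and Naaladl2 (0.0111% of those tested). Only 3 were lower without overlap, Cd177, Clca3a1 and Sting1 (0.0166%).

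Egf, the gene of the founding ligand of the family, had the smallest adjusted p of all tested genes. It measured 7.57, 8.19 and 8.68 log2 (lowest, median, highest) in Erbb4-high tumours, against 5.04, 5.81 and 6.84 log2 in Erbb4-low tumours. Every Erbb4-high tumour thus lay above every Erbb4-low tumour. The difference was 2.23 ± 0.187 log2 (SE), a 4.69-fold higher level, with an adjusted p of 1.09e-07 in limma, and it ranged from 2.16 without mid9 to 2.32 without mid71. In the 23 tumours between the groups, whose Erbb4 spans only 1.09 log2, Egf had a slope of 1.39 ± 0.407 log2 per log2 unit of Erbb4 (unadjusted p = 0.00219 in limma), which did not pass adjustment over all genes. Mature EGF is cut from a membrane-bound precursor and binds EGFR.

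Since Erbb4 and Egf were high in the same tumours, their promoter windows are shown, from RefSeq on GRCm38.p6. Each runs from 250 bases before to 50 bases after the annotated start, on the minus strand, with the transcribed bases from the start in capitals. The window of Erbb4 lies at chr1:69108010-69108309 and the first window of Egf at chr3:129755273-129755572.
Erbb4: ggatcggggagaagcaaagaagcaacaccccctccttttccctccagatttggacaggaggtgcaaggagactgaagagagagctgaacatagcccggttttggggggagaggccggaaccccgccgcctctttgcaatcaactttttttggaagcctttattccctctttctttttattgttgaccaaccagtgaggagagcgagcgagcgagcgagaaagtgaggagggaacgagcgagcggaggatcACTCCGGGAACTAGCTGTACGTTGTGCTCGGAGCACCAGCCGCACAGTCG
Egf: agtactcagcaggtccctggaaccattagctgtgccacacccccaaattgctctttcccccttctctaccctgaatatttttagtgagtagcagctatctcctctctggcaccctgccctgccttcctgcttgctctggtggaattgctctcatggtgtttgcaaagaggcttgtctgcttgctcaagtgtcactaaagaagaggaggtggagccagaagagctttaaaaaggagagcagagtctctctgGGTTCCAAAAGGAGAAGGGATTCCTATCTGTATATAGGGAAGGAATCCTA
A script searched both strands for the letters TTCNNNGAA, the spacing that STAT factors bind, and GCCNNNGGC, a core bound by AP-2 factors. Neither was found in the Erbb4 window, in this Egf window or in a second annotated Egf window at chr3:129725037-129725336. Of 32851 promoter windows of the same length, 8.30% held the first and 16.6% the second set of letters. No match says only that these letters are not in these windows.

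The other receptors of the family did not differ past the test. Erbb2, whose probe set may read the transgene as well as the mouse gene, measured 11.1, 11.7 and 11.92 log2 in Erbb4-high tumours, against 11.33, 11.74 and 11.94 log2 in Erbb4-low tumours (difference -0.08 ± 0.09 log2, SE; limma adjusted p = 0.695). Erbb3, the kinase-impaired partner of ERBB2, differed by -0.002 log2 and Egfr by -0.08 log2, with adjusted p of 0.992 and 0.822. In all 3 the groups overlapped over most of their range.

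Of 10 tested ligand genes, 2 were higher, 2 were lower and 6 were not called, and the median difference was 0.01 log2. Beside Egf, Btc, which encodes betacellulin, a ligand of both EGFR and ERBB4, was 0.24 ± 0.073 log2 higher (SE; limma adjusted p = 0.0467), a call held in 8 of the 24 fits that left out 1 tumour. Hbegf, whose product binds EGFR and ERBB4, fell by 0.62 log2 in Erbb4-high tumours (limma adjusted p = 0.0262). Tgfa, an EGFR ligand, fell by 0.36 log2 (limma adjusted p = 0.0253). Without mid130 the adjusted p was 0.0516 for Hbegf and 0.0505 for Tgfa, so both calls were lost without that tumour.

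The neuregulins, the main ligands of ERBB3 and ERBB4, were not called. Nrg1 measured 5.2, 6.73 and 8.38 log2 in Erbb4-high tumours, against 4.93, 5.59 and 7.48 log2 in Erbb4-low tumours, a difference of 0.84 ± 0.353 log2 (SE; limma adjusted p = 0.171). Nrg2, Nrg3 and Nrg4 differed by -0.12, 0.003 and 0.02 log2. Ereg and Epgn differed by -0.03 and 0.26 log2, also without a call.

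Among 25 tested partners of ERBB4 and proteins that cut or degrade it, 2 were higher and none lower, beside 4.05% and 2.65% of all tested genes. They are Stat5a and Stat5b, the factors that carry prolactin and ERBB4 signals to milk genes. Stat5b measured 8.31, 8.67 and 9.1 log2 in Erbb4-high tumours, against 7.94, 8.28 and 8.7 log2 in Erbb4-low tumours, a difference of 0.34 ± 0.092 log2 (SE; limma adjusted p = 0.0245) called in all 24 fits with 1 tumour left out. Stat5a was 0.48 ± 0.141 log2 higher (SE; limma adjusted p = 0.0378), but the call held in only 12 of those 24 fits. Socs3, a feedback inhibitor of cytokine signals to STAT factors, fell by 0.51 log2 in Erbb4-high tumours (limma adjusted p = 0.011). The 3 called genes were thus 2 of the 16 tested genes of the prolactin and STAT5 list upwards and 1 downwards, and the median of that list was -0.02 log2. None of these 3 calls held with the marker scores of 4 other cell types as covariates. Stat5b, Stat5a and Socs3 then differed by 0.29, 0.50 and -0.31 log2 (limma adjusted p 0.183, 0.114 and 0.136).

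The milk genes did not follow as a group. Of 21 tested, 2 were higher and none was lower, beside 4.05% and 2.65% of all tested genes. The median difference of the milk genes was -0.17 log2. Lalba, the lactose synthase subunit alpha-lactalbumin, measured 11.35, 12.83 and 13.21 log2 in Erbb4-high tumours, against 8.79, 11.86 and 12.91 log2 in Erbb4-low tumours, a difference of 1.07 ± 0.331 log2 (SE; limma adjusted p = 0.0496). That call held in 6 of the 24 fits with 1 tumour left out. Slc34a2, a sodium-phosphate transporter of the secreting gland, was 1.67 ± 0.343 log2 higher (SE; limma adjusted p = 0.00477), but 0.89 log2 higher and not called with the chromosome 4 level as a covariate (adjusted p = 0.162). The caseins were not called: Csn2 spanned 4.82 to 13.48 log2 in Erbb4-high tumours and 10.28 to 13.35 log2 in Erbb4-low tumours, with a difference of -1.22 ± 0.706 log2 (SE; limma adjusted p = 0.353). Elf5, a factor of the secretory lineage, differed by 0.35 log2 (limma adjusted p = 0.132).

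Fatty acid synthesis, which supplies milk fat, had 4 of 11 tested genes higher and 1 lower, beside 4.05% and 2.65% of all tested genes. The median difference over the list was 0.48 log2. Fasn, the fatty acid synthase, measured 9.38, 9.75 and 10.2 log2 in Erbb4-high tumours, against 8.59, 9.35 and 9.73 log2 in Erbb4-low tumours (difference 0.48 ± 0.119 log2, SE; limma adjusted p = 0.0149). Gpam, the first acyltransferase of triglyceride synthesis, was 0.49 log2 higher, Elovl6, an elongase, 0.63 log2 higher, and Thrsp, a lipogenic regulator, 1.42 log2 higher. The call of Thrsp was lost in 8 of the 24 fits with 1 tumour left out, with the largest adjusted p, 0.0586, without mid130. Elovl5, an elongase of polyunsaturated chains, fell by 0.56 log2 in Erbb4-high tumours (limma adjusted p = 0.0312; 0.0584 without mid130). Acaca, Acly and Scd1 differed by 0.11, 0.33 and 0.52 log2 and were not called. None of the 5 calls held when the level of chromosome 4 or the marker scores of 4 other cell types were taken into the fit, although several differences stayed about as large. With the chromosome 4 level Gpam was 0.50 log2 higher (adjusted p = 0.0532) and Elovl6 0.57 log2 higher, whereas Thrsp was 0.48 log2 higher. With the cell type scores Thrsp was 1.44 log2 higher (adjusted p = 0.0768) and Elovl5 0.63 log2 lower (adjusted p = 0.0642).

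The 15 genes with the largest positive differences that were called in every fit with 1 tumour left out were Prol1, Scgb2b27, Gabra4, Egf, Eya1, Rragd, Car6, Mfsd4a, Padi2, Serpini1, Dpp4, Elapor1, Slc34a2, 2010016I18Rik and Pon3, with differences from 2.57 to 1.63 log2. Prol1, a proline-rich protein of lacrimal and salivary secretions, measured 5.91, 7.39 and 12.1 log2 in Erbb4-high tumours, against 4.11, 5.11 and 6.39 log2 in Erbb4-low tumours (difference 2.57 ± 0.504 log2, SE; limma adjusted p = 0.00332). Scgb2b27, a secretoglobin with close copies in the genome that may share its probes, measured 8.46, 11.74 and 12.93 log2 in Erbb4-high tumours, against 6.82, 8.9 and 11.62 log2 in Erbb4-low tumours (difference 2.54 ± 0.519 log2, SE; limma adjusted p = 0.00464). Both genes spread widely within each group, and their groups overlapped. They were the only called genes among 14 tested genes of salivary, lacrimal and other gland secretions, whose median difference was -0.06 log2.

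Rragd, a Rag GTPase that brings the growth kinase mTORC1 to lysosomes, measured 6.8, 7.9 and 9 log2 in Erbb4-high tumours, against 4.69, 5.91 and 6.87 log2 in Erbb4-low tumours. The groups overlapped by the edge only, and the difference was 2.14 ± 0.294 log2 (SE; limma adjusted p = 0.000221). Car6, a secreted carbonic anhydrase of saliva and milk, was 2.08 log2 higher, and Padi2, which converts arginine to citrulline in proteins, 1.90 log2 higher. These 3 genes lie on chromosome 4. Gabra4, a subunit of the GABA-A receptor, was high in only some Erbb4-high tumours: its lowest, median and highest values were 3.58, 5.45 and 8.82 log2 there, against 3.32, 3.52 and 5.34 log2 in Erbb4-low tumours. Serpini1, a protease inhibitor of neurons, had the same form, with 3.85, 6.55 and 8 log2 in Erbb4-high tumours, against 3.74, 4.1 and 5.31 log2 in Erbb4-low tumours. Eya1, a transcriptional co-activator with phosphatase activity, and Dpp4, a membrane peptidase, were 2.20 and 1.76 log2 higher.

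**Figure D2:**
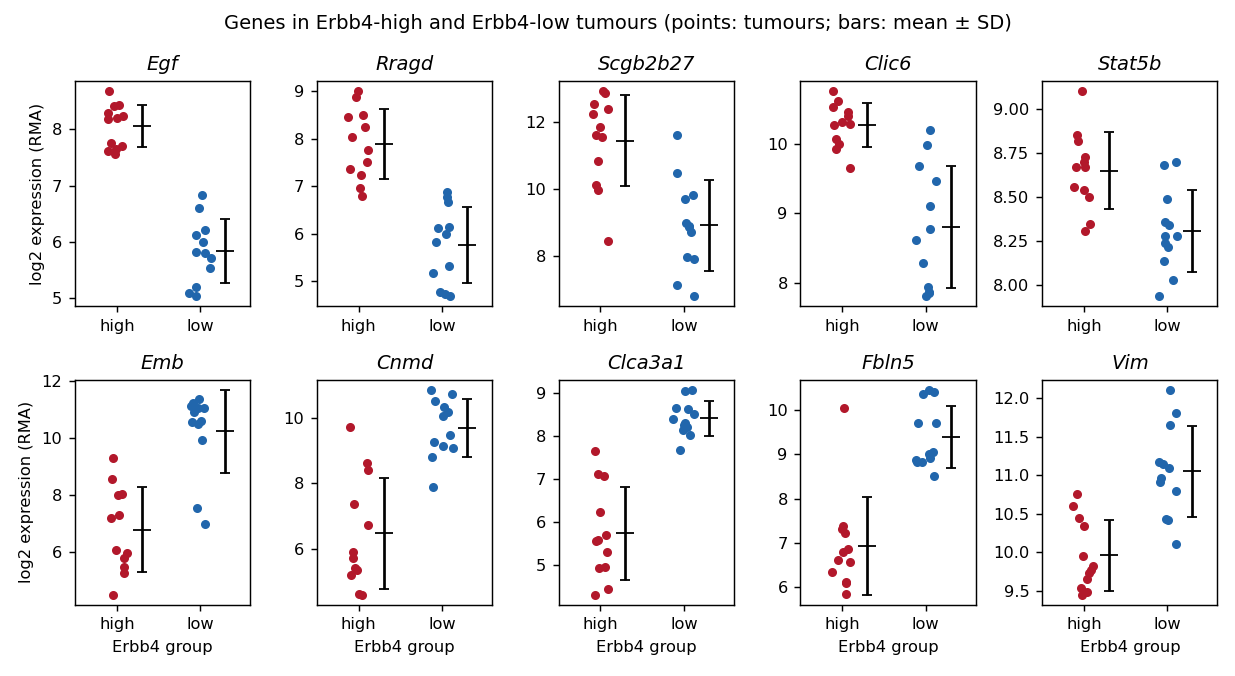
Log2 expression of 10 genes in the 12 Erbb4-high (red, left) and 12 Erbb4-low (blue, right) tumours; each point is 1 tumour and each bar is the mean ± SD of the group. Egf and Clca3a1 separate the groups without overlap, whereas Scgb2b27 and Emb spread over several log2 units within a group.

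The 15 genes with the largest negative differences by the same rule were Emb, Cnmd, Clca3a1, 4930503L19Rik, Cpe, Fbln5, Clca3a2, Cd177, Capn6, Tnc, Dlgap1, Il18r1, Ceacam10, Ppp2r2b and Trpv4. Emb, which encodes embigin, an escort of lactate transporters to the membrane, measured 4.5, 6.63 and 9.29 log2 in Erbb4-high tumours, against 6.97, 10.75 and 11.37 log2 in Erbb4-low tumours. The difference was -3.45 ± 0.558 log2 (SE; limma adjusted p = 0.000791), the largest of either direction by this rule. Cnmd, which encodes chondromodulin, a cartilage protein that restrains vessel growth, measured 4.59, 5.8 and 9.74 log2 in Erbb4-high tumours, against 7.89, 9.77 and 10.87 log2 in Erbb4-low tumours (difference -3.23 ± 0.518 log2, SE; limma adjusted p = 0.000704). In both genes the medians lay several log2 units apart while the extremes of the groups overlapped.

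Clca3a1, a secreted protein that acts on chloride channels, did not overlap between the groups, although their nearest tumours almost touched, with 4.31, 5.57 and 7.66 log2 in Erbb4-high tumours, against 7.67, 8.35 and 9.07 log2 in Erbb4-low tumours (difference -2.67 ± 0.311 log2, SE; limma adjusted p = 4.87e-05). Its neighbour and close copy Clca3a2 was 2.39 log2 lower, and probes of both may read either gene. Cd177, a surface glycoprotein known from neutrophils, measured 6.32, 7.4 and 8.62 log2 in Erbb4-high tumours, against 8.64, 9.72 and 10.89 log2 in Erbb4-low tumours (difference -2.36 ± 0.291 log2, SE; limma adjusted p = 7.09e-05). Its groups were separated by a narrow gap. Of 9 tested neutrophil markers none was called, and 8 had differences below 0 and 1 above (median -0.15 log2). Their mean level was 4.85 to 5.48 log2 in Erbb4-high tumours and 4.99 to 6.38 log2 in Erbb4-low tumours, with mid9 the highest. The part of neutrophils in the difference of Cd177 was not tested.

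Sting1, the adaptor that carries the signal of cytosolic DNA to interferon genes, did not overlap either, by as narrow a margin. It measured 7.28, 7.96 and 8.52 log2 in Erbb4-high tumours, against 8.53, 8.87 and 9.78 log2 in Erbb4-low tumours (difference -1.10 ± 0.154 log2, SE; limma adjusted p = 0.000221). It was named after its values were seen, because its groups do not overlap. The gene lies on chromosome 18, whose level in each group is given below. None of 20 tested interferon-induced genes was called, and their median difference was -0.13 log2. Among 10 tested genes of antigen presentation by MHC class I, Erap1, a peptide-trimming enzyme, was the only one called and fell by 0.35 log2 in Erbb4-high tumours (limma adjusted p = 0.0201).

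Vim, an intermediate filament of mesenchymal cells, measured 9.45, 9.8 and 10.76 log2 in Erbb4-high tumours, against 10.11, 11.04 and 12.11 log2 in Erbb4-low tumours (difference -1.09 ± 0.203 log2, SE; limma adjusted p = 0.00235). Vim was the only called gene of 13 tested genes of epithelial-mesenchymal transition. Of these 13, 11 had differences below 0 and 2 above, with a median of -0.14 log2. Among the genes named above, Tnc and Fbln5 encode the matrix proteins tenascin and fibulin, and Fbln5 measured 5.84, 6.71 and 10.04 log2 in Erbb4-high tumours, against 8.51, 9.04 and 10.45 log2 in Erbb4-low tumours. One Erbb4-high tumour lay within the range of the Erbb4-low tumours, and the other 11 lay below it.

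Markers of other cell types were measured beside these genes. All 21 tested fibroblast and matrix markers were below 0, with a median difference of -0.58 log2, and none was called. Their mean level was 6.24 to 8.71 log2 (median 7.23) in Erbb4-high tumours and 6.58 to 10.1 log2 (median 7.79) in Erbb4-low tumours, with mid9 the highest. All 18 tested macrophage markers were below 0 too, with a median of -0.34 log2, and Cd14 was the only one called (-1.28 ± 0.38 log2, SE; limma adjusted p = 0.041), a call held in 9 of the 24 fits with 1 tumour left out. Macrophage levels were 6.6 to 7.78 log2 in Erbb4-high tumours and 6.52 to 8.72 log2 in Erbb4-low tumours. Of 14 tested skeletal muscle markers 13 were below 0 and 1 above, with a median of -0.44 log2, and none was called. Their mean level reached 9.57 log2 in mid71, an Erbb4-low tumour, against at most 5.79 log2 in the Erbb4-high tumours. The part of muscle in the results was not tested. No gene was called among 20 endothelial, 15 T and NK cell, 10 B cell, 6 peripheral nerve and 11 squamous skin markers. Of the endothelial markers 18 were below 0 and 2 above, with a median of -0.10 log2. The T and NK cell markers had 7 below 0 and 8 above, and the B cell markers 6 below and 4 above.

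With scores of fibroblast and matrix, endothelial, adipocyte and macrophage genes as covariates, limma called 175 genes higher and 170 lower, of which 167 and 156 were among the genes called without them. Egf was then 2.01 log2 higher (limma adjusted p = 1.87e-05) and Vim 0.81 log2 lower (adjusted p = 0.0142). Of the 15 largest differences upwards 10 were still called, and of the 15 largest downwards 12 were. Tnc was not among these: its difference moved to -0.96 log2 (adjusted p = 0.0679), against -1.88 log2 without the scores. Gabra4, Eya1, Padi2, Serpini1 and Elapor1 also lost their calls, with differences of 2.18, 2.04, 1.44, 1.47 and 1.31 log2 in this fit. Capn6 and Ceacam10 lost theirs at -2.41 and -1.69 log2. The differences of Gabra4, Eya1, Capn6 and Ceacam10 moved little, and those of Padi2, Serpini1 and Elapor1 were smaller.

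Markers of basal or myoepithelial cells had 2 of 14 tested genes lower and none higher, beside 2.65% and 4.05% of all tested genes. Of these 14, 13 had differences below 0 and 1 above, with a median of -0.21 log2. Cdh3, which encodes P-cadherin, fell by 0.56 log2 in Erbb4-high tumours (limma adjusted p = 0.013). Itgb4, a basement membrane integrin, fell by 0.31 log2 (limma adjusted p = 0.0297; 0.0539 without mid101, and also above the threshold without mid11, mid117, mid130 or mid99). Of 28 tested luminal and hormone genes, 3 were higher and 3 lower, and the median difference was -0.004 log2. The higher ones were Spdef, an epithelial transcription factor (0.70 log2), Esrp1, an epithelial splicing factor (0.60 log2), and Gata3, the master factor of the luminal lineage (0.40 log2). The lower ones were Aldh1a3, a retinaldehyde dehydrogenase (-0.82 log2), the keratin Krt7 (-0.78 log2) and the tight junction gene Cldn7 (-0.35 log2). The calls of Spdef, Gata3, Aldh1a3 and Cldn7 were lost in 9 or more of the 24 fits with 1 tumour left out. With the chromosome 4 level as a covariate, Spdef was the only gene of this list called (1.03 log2 higher, limma adjusted p = 0.0203). The calls of Esrp1 and Gata3 were thus lost there. With the cell type scores as covariates, no gene of the list was called higher and 1 was called lower.

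Receptors that steer epithelial fate differed singly. Notch1 measured 7.72, 9.1 and 9.5 log2 in Erbb4-high tumours, against 7.46, 8.01 and 8.79 log2 in Erbb4-low tumours (difference 0.89 ± 0.21 log2, SE; limma adjusted p = 0.011). Hey1, a target of Notch signals, was 0.53 log2 higher, whereas Notch4, another receptor, fell by 0.41 log2 and Nrarp, a feedback target, by 0.54 log2. These 4 were the called genes among 18 tested, and the median of the list was -0.11 log2. Of 23 tested Wnt pathway genes, Sfrp1, a secreted inhibitor, fell by 1.20 ± 0.233 log2 in Erbb4-high tumours (SE; limma adjusted p = 0.00314). Lgr4, a receptor for R-spondins, fell by 0.47 log2 and the ligand Wnt7b by 0.39 log2, while Rnf43, which removes Wnt receptors from the membrane, was 0.43 log2 higher. The calls of Nrarp and Wnt7b were each lost in some fits with 1 tumour left out, that of Nrarp without mid101, mid111 or mid120 (largest adjusted p 0.0518).

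Further down the receptor pathway, 2 of 16 tested genes of ERK feedback were higher, beside 4.05% of all tested genes. Dusp5, a nuclear ERK phosphatase, was 0.69 log2 higher and Phlda1 was 0.44 log2 higher, and their calls held in 11 and 7 of the 24 fits with 1 tumour left out. Proliferation genes gave 1 call of 32, for the kinase gene Melk on chromosome 4 (0.52 log2, held in 6 of those fits). Mki67 differed by 0.25 log2 (limma adjusted p = 0.511). Trp53inp1, a p53 target on chromosome 4, was 0.98 log2 higher (limma adjusted p = 0.00942), the only call among 17 p53 targets. Herpud1, of the unfolded protein response, was 0.54 log2 higher and the only call of 17. Map4, a microtubule-binding protein in the list of drug transport and drug targets, fell by 0.51 log2 and was the only call of 22. In the adipocyte list of 13, Cidea, a lipid droplet protein, fell by 0.82 log2. Pnpla2, a triglyceride lipase, was 0.59 log2 higher, a call lost in 7 of those fits (largest adjusted p 0.0581, without mid130).

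No call was made among 5 AP-2 factors, 13 genes of apoptosis, 19 of hypoxia and glycolysis, 13 of cholesterol synthesis or 12 of redox defence. AP-2 factors bind promoters of ERBB receptors in human breast cancer cells. Tfap2b had nearly the same range in both groups, 3.63 to 9.61 log2 in Erbb4-high tumours and 3.57 to 9.77 log2 in Erbb4-low tumours (difference 0.46 ± 0.942 log2, SE; limma adjusted p = 0.84). Over all 34 lists, 24 genes were higher and 19 lower among 518 tested, and 15 lists had no called gene. The shares of list genes called were 4.63% and 3.67%, against 4.05% and 2.65% of all tested genes.

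**Figure D3:**
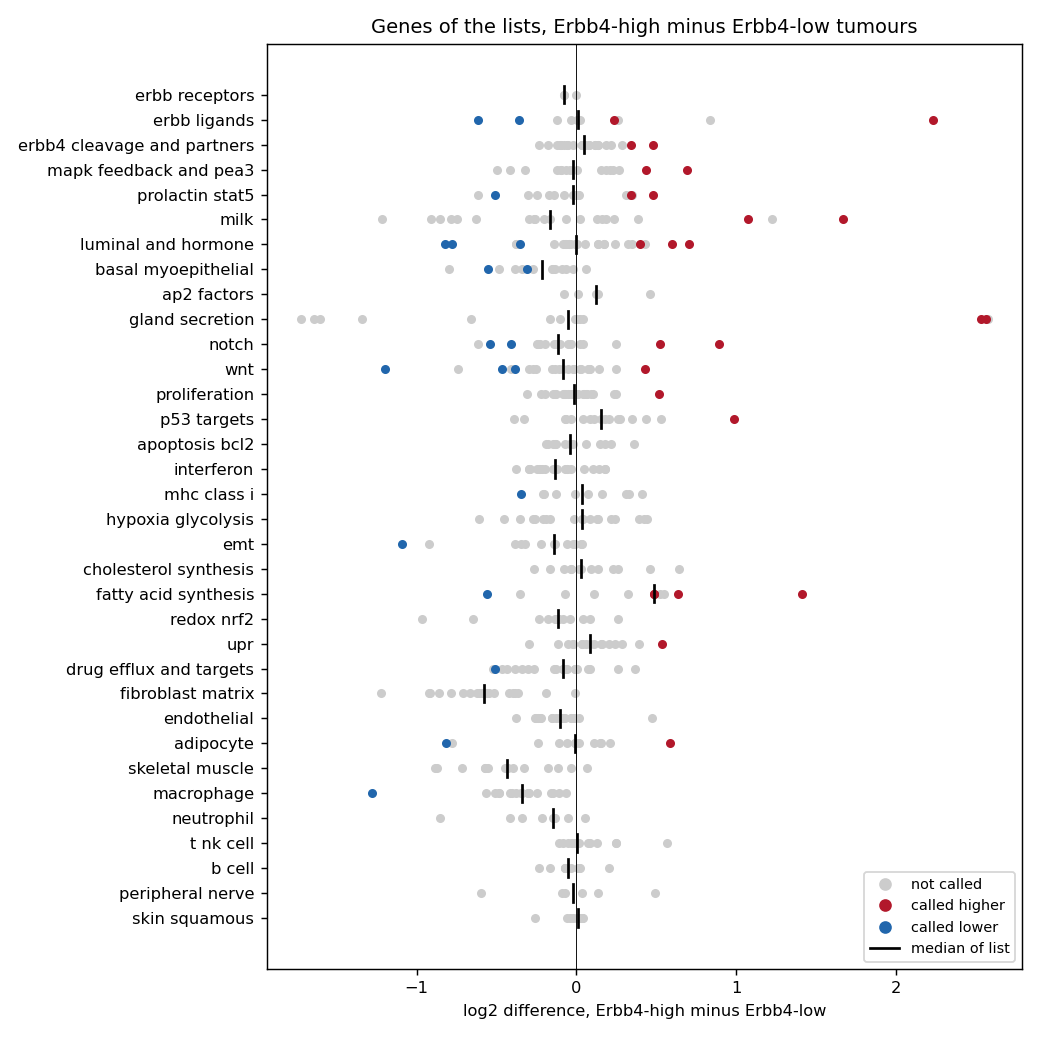
Log2 difference, Erbb4-high minus Erbb4-low, for each tested gene of 34 lists (1 row per list, 1 point per gene; red called higher, blue called lower, grey not called, black line the median of the list). Fatty acid synthesis has its median at 0.48 log2, and all fibroblast and matrix genes lie at or left of 0 without a call.

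Of 249 tested microRNA genes, 8 were higher and 4 lower, and these were named after their values were seen. Of all tested genes 4.05% were higher and 2.65% lower, so microRNA genes were called no more often than other genes. Of the higher ones Mir200a, Mir200b, Mir30e and Mir872 lie on chromosome 4 and Mir1907, Mir297a-4, Mir3075 and Mir365-2 elsewhere. The lower ones were Mir143, Mir145a, Mir1949 and Mir3109. The arrays read total RNA, and the sources used here do not say which form of the transcript the probe sets read. Mature sequences of 3 from chromosome 4, whose calls were lost when the level of that chromosome entered the fit, are given from RefSeq on GRCm38.p6, with the seed (bases 2 to 8) in capitals. They lie on the minus strand at chr4:156055685-156055706, chr4:156054911-156054932 and chr4:120772660-120772681, in the order printed.
mmu-miR-200b-3p: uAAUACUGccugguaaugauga
mmu-miR-200a-3p: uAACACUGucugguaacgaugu
mmu-miR-30e-5p: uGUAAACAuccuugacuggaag
The 3 seeds are different from each other. The miR-200 family keeps epithelial cells epithelial by silencing Zeb1 and Zeb2. Mir200b measured 6.28, 7.27 and 7.68 log2 in Erbb4-high tumours, against 5.61, 6.4 and 6.88 log2 in Erbb4-low tumours (difference 0.82 ± 0.187 log2, SE; limma adjusted p = 0.00897). Mir200a, of the same transcript, was 0.56 log2 higher (limma adjusted p = 0.0233), and Mir30e was 0.79 log2 higher (limma adjusted p = 0.0132). Zeb1 itself measured 5.07, 5.67 and 6.19 log2 in Erbb4-high tumours, against 5.5, 5.79 and 7.2 log2 in Erbb4-low tumours, and was not called (difference -0.35 ± 0.177 log2, SE; limma adjusted p = 0.281). Mir145a, known from smooth muscle, fell by 1.07 log2 in Erbb4-high tumours (limma adjusted p = 0.0344), a call lost in 7 of the 24 fits with 1 tumour left out (largest adjusted p 0.0602, without mid101) and with the cell type scores (0.102). Mir143, its neighbour, fell by 0.51 log2, a call held in 7 of the 24 fits with 1 tumour left out.

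The called genes were unevenly placed on the chromosomes. Chromosome 4 held 209 of the 730 higher genes, 19.5% of its 1074 tested genes, and 5 lower ones (0.466%). Chromosome 5 had 71 higher and 10 lower of 1091, and chromosome 18 had 5 higher and 35 lower of 455 (7.69% lower). Of the called genes named here, Prol1, Gabra4, Slc34a2 and Btc (higher) and Trpv4 (lower) lie on chromosome 5. On chromosome 18 lie Sting1, Hbegf, Cd14, Cidea, 4930503L19Rik, Ppp2r2b, Tpgs2, Mir143, Mir145a and Mir1949, all lower. The other 521 higher genes lay off chromosome 4 or had no place in the gene table.

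**Figure D4:**
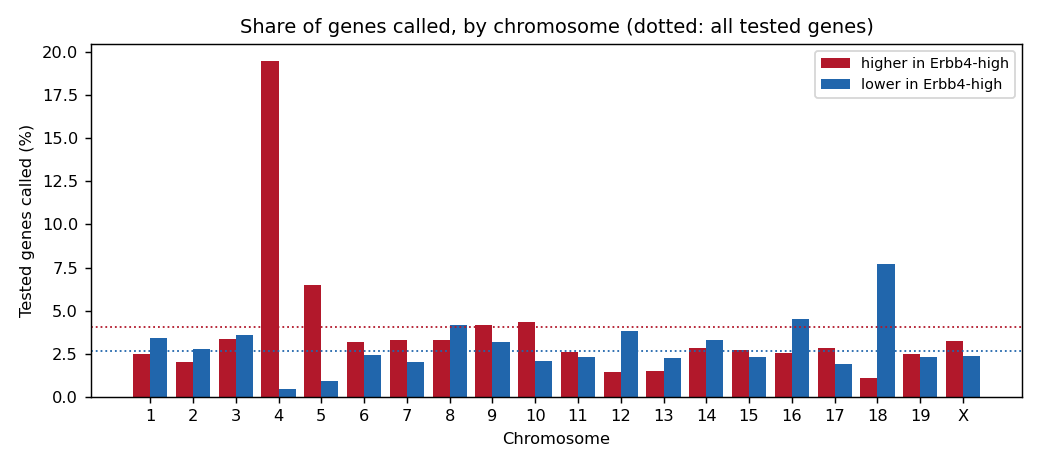
Percent of tested genes called higher (red) and lower (blue) in Erbb4-high against Erbb4-low tumours, by chromosome; dotted lines give the shares over all tested genes, 4.05% and 2.65%. The red bar of chromosome 4 reaches 19.5%, and the tallest blue bar is that of chromosome 18 at 7.69%.

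For each tumour the level of a chromosome was taken as the median deviation of its well-expressed genes from their mean over tumours, relative to the median of all chromosomes. On chromosome 4 this level was -0.23, 0.18 and 0.32 log2 (lowest, median, highest) in Erbb4-high tumours, against -0.22, -0.19 and 0.21 log2 in Erbb4-low tumours. It was above 0 in 9 of 12 Erbb4-high tumours and in 2 of 12 Erbb4-low tumours, mid2 and mid102. The means were 0.10 ± 0.205 and -0.12 ± 0.136 log2 (SD, n = 12 each), a difference of 0.22 log2. A two-sided permutation test gave p = 0.0069, and 0.069 after adjustment over 20 chromosomes, so the difference did not pass the threshold. On chromosome 5, 3 of the 24 tumours stood out, all Erbb4-high: mid177 with 0.46 log2, mid7 with 0.32 log2 and mid114 with 0.30 log2 (difference 0.10 log2, permutation p = 0.0143, adjusted 0.0956). The next highest of the 47 was mid127, between the groups, with 0.15 log2. On chromosome 18 the Erbb4-low tumours mid11, mid33, mid135 and mid145 had 0.60, 0.38, 0.30 and 0.28 log2, while the Erbb4-high tumours had -0.08 to -0.002 log2 (difference -0.16 log2, permutation p = 0.00672, adjusted 0.069).

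The genes were also tested with the chromosome 4 level as a covariate, an alternative chosen after seeing the data. Then 136 genes were higher and 88 lower, of which 118 and 79 were among the genes called without it. Egf, on chromosome 3, was 2.32 log2 higher (limma adjusted p = 4.15e-06), as large as without the covariate. Rragd, on chromosome 4 itself, was 1.82 log2 higher (adjusted p = 0.0118). Of the 15 largest differences upwards 7 were still called, and of the 15 largest downwards 11 were. Among those that lost their call, the differences of Dpp4, Pon3 and Dlgap1 were 1.02, 1.01 and -1.08 log2 in this fit, and those of Car6 and Tnc were 1.68 and -1.90 log2. Trp53inp1, Lalba and Krt7 also lost their calls, at 0.60, 0.53 and -0.48 log2. Cnmd and Cpe stayed called with smaller differences of -2.06 and -1.30 log2. The calls of Mir200a, Mir200b and Mir30e were lost (adjusted p 0.42, 0.213 and 0.268), with differences of 0.27, 0.52 and 0.49 log2. Stat5a, Stat5b and Notch1 lost theirs too (0.404, 0.135 and 0.313). The difference of Stat5b stayed at 0.34 log2, while those of Stat5a and Notch1 were 0.30 and 0.42 log2. Over 47 tumours, Erbb4 and the chromosome 4 level had a Pearson r of 0.44 and a Spearman rho of 0.38, while within the 23 tumours between the groups r was -0.04. These are descriptions over tumours partly chosen by Erbb4.

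**Figure D5:**
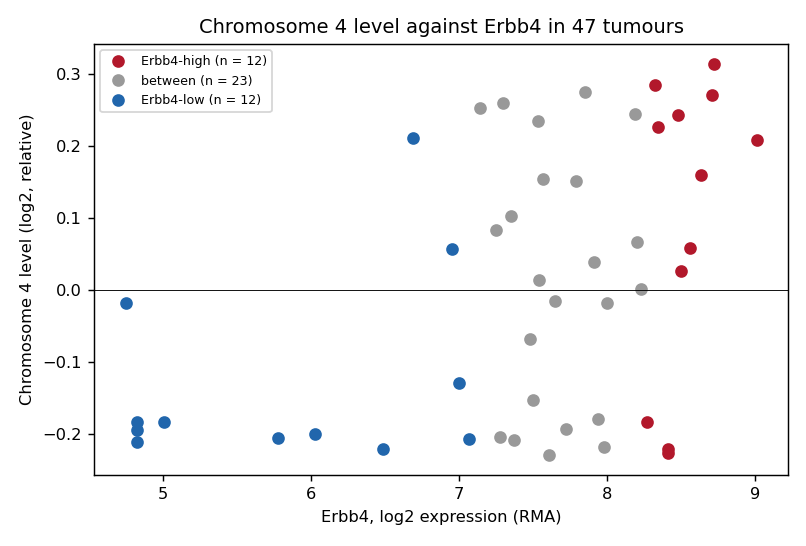
Chromosome 4 level (vertical axis, log2 relative to the median chromosome) against Erbb4 (horizontal axis, log2 expression) in 47 tumours; red marks Erbb4-high, grey the tumours between and blue Erbb4-low. Of the red points 9 lie above 0, and of the blue points 10 lie below it.

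The 23 tumours that the comparison did not use gave no called gene. Regression of each gene on Erbb4 there with limma called 0 rising and 0 falling genes after adjustment, with 315 rising (1.75% of those tested) and 264 falling (1.46%) at an unadjusted p under 0.05. Among the 730 genes higher in Erbb4-high tumours, 538 (73.7%) had a positive slope, against 51.1% of all tested genes, and 63 (8.63%) had a positive slope with an unadjusted p under 0.05. Among the 478 lower genes, 378 (79.1%) had a negative slope, against 48.9% of all tested genes, and 38 (7.95%) had one with an unadjusted p under 0.05. Leaving out chromosome 4, the shares with the same sign were 79.8% of 521 higher and 79.1% of 473 lower genes. Genes that move together are not independent, so these shares are descriptions. Of the 15 largest differences upwards 14 had a positive slope, Gabra4 being the exception, and of the 15 largest downwards 11 had a negative one.

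The genes most like Erbb4 over the 47 tumours, by Pearson correlation, were Clic6 (0.84), Acad9 (0.82), Egf (0.81), Fam221a (0.78), Rabep2 (0.78) and Naaladl2 (0.77). By Spearman's rho Egf came first of these 6 with 0.84, ahead of Naaladl2 with 0.81, and Clic6 came last with 0.62. Without mid11 and mid9, the tumours farthest from the median of Erbb4, r was 0.79 for Clic6 and 0.80 for Egf. Within the 23 tumours between the groups r was -0.03 for Clic6, 0.36 for Acad9, 0.57 for Egf and 0.47 for Naaladl2. Erbb4 had an SD of 0.324 log2 in these 23 tumours against 1.13 log2 over the 47, so r is not comparable between them. The mean of Clic6, an intracellular chloride channel protein, was 10.28 log2 in Erbb4-high tumours, 9.98 log2 between and 8.80 log2 in Erbb4-low tumours. Its likeness to Erbb4 thus came mainly from the low end of the ranking. These genes were chosen over all 47 tumours, and neither the slope of Egf nor that of any other gene passed adjustment within the 23.

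Clic6 measured 9.66, 10.31 and 10.76 log2 in Erbb4-high tumours, against 7.81, 8.7 and 10.2 log2 in Erbb4-low tumours (difference 1.48 ± 0.252 log2, SE; limma adjusted p = 0.00132). Acad9, a mitochondrial factor that builds respiratory complex I, measured 8.67, 8.96 and 9.35 log2 in Erbb4-high tumours, against 7.43, 8.22 and 8.72 log2 in Erbb4-low tumours. Naaladl2, related to glutamate carboxypeptidases, measured 8.47, 8.84 and 9.35 log2 in Erbb4-high tumours, against 7.63, 8.17 and 8.36 log2 in Erbb4-low tumours, without overlap (difference 0.76 ± 0.101 log2, SE; limma adjusted p = 0.000189). The genes most opposite to Erbb4 were Dclk1 (r -0.79), Trpv4 (-0.78), Fndc1 (-0.78), Cpne2 (-0.76), Tpgs2 (-0.74) and Syde1 (-0.74). Trpv4, a calcium channel that senses stretch and osmotic change, measured 5.02, 5.57 and 6.71 log2 in Erbb4-high tumours, against 6.71, 7.16 and 8.64 log2 in Erbb4-low tumours, and within the 23 tumours between its r was 0.02.

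None of the 20 tested neighbours of Erbb4 on chromosome 1, 10 on each side in gene order, was called. Ikzf2, a lymphocyte transcription factor and the nearest tested gene on one side, differed by -0.31 log2 (limma adjusted p = 0.22). Cps1, the nearest on the other side and an enzyme of the urea cycle, differed by 0.06 log2 (limma adjusted p = 0.601). The smallest adjusted p among them, 0.107, belonged to Pecr, an enzyme of fatty acid elongation. The level of chromosome 1 as a whole differed by -0.03 log2.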

How the data were processed

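The data are 50 arrays, 1 per tumour biopsy, and precision is limited by the number of arrays. The deposited values are log2 expression that the authors made with RMA, per the submitters' processing notes, for 34472 probe sets. Quantile normalization within RMA would hide a change common to most genes. No version of RMA is given, and the build mm8 is named with no role. Per the labels' protocols, total RNA was extracted with Trizol and 6 ug was labelled.

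In the platform annotation 23521 probe sets name 1 gene, 1814 name several and 9137 name none. By Entrez identifier 23328 probe sets matched a RefSeq table on GRCm38.p6, which gave names, gene order and sequences. Each of 22180 genes was read from its probe set with the highest mean. A filter at the 25th percentile of probe set means (4.09 log2) kept 18044 genes besides Erbb4, of which 17904 had a chromosome.

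The 12 Erbb4-high and 12 Erbb4-low tumours were compared with limma 3.58.1 (lmFit, eBayes with trend) in R 4.3.3. Genes were called at a Benjamini-Hochberg adjusted p under 0.05. The 23 tumours between were fitted with Erbb4 as a regressor. The members and the 34 gene lists were chosen with earlier results of these data known. Named genes are the 15 with the largest difference in each direction that were called in every fit with 1 tumour left out, up to 3 called members of each list (or the member with the largest difference), all ERBB receptors, ERBB ligands and AP-2 factors, the 20 neighbours of Erbb4, and the 6 genes most like and 6 most unlike it. Sting1, Zeb1, the microRNA genes and list members given beyond these were chosen after their values were seen, as were the chromosome levels, from genes above the 50th percentile. Chromosome levels were compared by two-sided permutation tests (100000 resamples) with Python 3.11.15, numpy 2.4.6, scipy 1.17.1 and pandas 2.3.3, and figures used matplotlib 3.10.9.

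On simulated data with 18044 genes, the comparison recovered 77 of 100 genes planted at 0.5 log2 and 95 of 100 at 1 log2, with 12 false calls. The regression over 23 tumours recovered 40 of 100 at a slope of 0.5 and 87 of 100 at a slope of 1, with 6 false calls. In both, values were drawn independently for each gene from a normal distribution, and the planted genes were picked at random. These rates do not carry over to genes with a wide spread, such as Prol1 and Emb, whose slopes had SEs of 1.14 and 1.03. Alternatives were other filters, probe set choices, normalization, array weights, variance models, covariates, thresholds, tumours kept or left out, and regression over 47 tumours.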

Additional observations from a re-analysis of the deposited data

How the results depend on the processing

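The count of higher genes, 730, stayed within 1.5 times under 9 settings of filter, probe set, normalization, array weights, variance model and array quality (648 to 801), and that of lower genes, 478, did so too (437 to 549). With 1 tumour left out the counts were 502 to 841 higher and 338 to 558 lower, both lowest without mid130. Scores of 4 cell types as covariates gave 175 higher and 170 lower genes. Keeping the 3 set-aside arrays in the ranking gave 567 higher and 318 lower. Regression over 47 tumours gave 1122 rising and 983 falling, of which 643 and 428 were among the genes called between the groups. An adjusted p under 0.01 left 231 and 153 genes, and a difference of at least 2-fold left 46 and 81. Of settings chosen after seeing the data, the chromosome 4 level as a covariate gave 136 and 88 genes, the levels of chromosomes 4, 5 and 18 together gave 62 and 37, and leaving out genes on chromosome 4 gave 462 and 441. The cause of these changes was not tested, except that stricter thresholds call fewer genes by construction. In the 23 tumours between the groups, the counts were 0 rising and 0 falling under every setting run there, beside 579 genes at an unadjusted p under 0.05. Of 87 named and called genes, 34 kept their call with the chromosome 4 level as a covariate, 39 with the 4 cell type scores and 59 with the 3 arrays kept. With the levels of chromosomes 4, 5 and 18 together as covariates, 20 of the 87 kept it. No named gene that was called changed its direction under any setting run. No paired analysis was possible because the labels put all tumours in 1 group. Differences between the ends of a ranking are no estimate of the difference between typical tumours, dim genes have compressed differences after RMA, and 1 array per tumour gives no measure of technical error.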

Other observations

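The 3 tumours set aside before ranking had Erbb4 values of 4.35 log2 (mid79), 4.77 log2 (mid60) and 7.21 log2 (mid100). Both mid79 and mid60 would have been among the 12 lowest, and mid100 would have lain between the groups.

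In the called microRNA genes off chromosome 4, Mir297a-4 was 0.90 ± 0.159 log2 higher in Erbb4-high tumours (SE; limma adjusted p = 0.00163) and remained called with the chromosome 4 level (adjusted p = 0.021) and with the 4 cell type scores (0.0342) as covariates. Mir297a-4 belongs to a repeated family, so its probes may read other copies. Mir365-2 was 0.50 log2 higher (limma adjusted p = 0.0167) and Mir3075 was 0.44 log2 higher (limma adjusted p = 0.0249).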
